A study of Homo sapiens with 12 samples.

Results

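The cytosolic ribosomal protein genes encode the proteins of the large (60S) and small (40S) subunits of the cytoplasmic ribosome. They were measured in human bladder cancer cells with CM272 or without it. The compound blocks both G9a, a histone methyltransferase, and the enzymes that methylate DNA. Members were chosen by name, not by any measured value: array features annotated with exactly 1 gene symbol of the RPL or RPS form, pseudogenes left out, with the brightest feature kept where a gene had several. This gave 54 genes of 22465 genes measured, of which 33 belong to the 60S subunit and 21 to the 40S subunit. A further 21 symbols of the family stood only on features that carry several symbols, mostly with a small nucleolar RNA in an intron. They were not members, and RPL3, RPL4, RPL5, RPL13A, RPS2 and RPS20 are among these. RefSeq held 84 protein-coding symbols of these forms, so some were in neither group, RPLP0 and RPSA among them.

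The study placed total RNA of the urothelial cancer cell lines RT112 and 5637 on Affymetrix whole-transcript arrays. The 3 groups used here were 5637 cells given CM272, RT112 cells given CM272, and RT112 cells with no CM272, with 3 arrays per group. CM272 was given at its IC50, and both lines were grown in Dulbecco's Modified Eagle Medium with fetal bovine serum. Neither a molar dose nor a treatment time is given in the sources used here. Each line is 1 established cell line, and the replicates are numbered without a statement that they came from separate cultures, so the p-values below measure only the spread between these arrays. The untreated 5637 arrays were not used because their values do not line up with the array features (their mean correlated with that of treated 5637 arrays at 0.0274 over 67528 features), so the effect of CM272 in 5637 could not be tested.

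Ribosomal protein genes are transcribed by RNA polymerase II from short, strong promoters, and their mRNAs carry a 5′ terminal oligopyrimidine (TOP) tract, a C at the first base followed by a run of C and U. TOP tracts let the cell tune translation of the whole family through mTOR and the RNA-binding protein LARP1. Because subunits are assembled from 1 copy of most proteins, the mRNAs are usually regarded as a coordinated, abundant set, and several are used as reference genes.

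The start sites of the members that moved most in treated RT112 cells are shown, with and without this feature. The RefSeq promoter table (GRCh38.p14) matched 47 of the 54 members, and the windows below hold 15 bases before the annotated start and 15 from it onward, 5′ to 3′ on the gene's strand. Capitals mark a run of C and T that starts with C at the start site and goes on for at least 4 more pyrimidines. A window with no capitals has no such run at the annotated start. In RPS28 a run of C and T begins at the base just after the annotated start, so it is not marked. RPS15, RPS29 and RPL41 had the largest rises among matched members, RPS28, RPL37A and RPL22L1 the largest falls, and RPS27 and RPS27L are a main form and its paralog. The windows, with the gene's strand, lie at chr19:1438381-1438410 plus (RPS15), chr14:49598696-49598725 minus (RPS29), chr12:56116618-56116647 plus (RPL41), chr19:8321481-8321510 plus (RPS28), chr2:216498829-216498858 plus (RPL37A), chr3:170870181-170870210 minus (RPL22L1), chr1:153990747-153990776 plus (RPS27) and chr15:63157463-63157492 minus (RPS27L).
RPS15: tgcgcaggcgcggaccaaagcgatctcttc
RPS29: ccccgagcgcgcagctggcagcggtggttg
RPL41: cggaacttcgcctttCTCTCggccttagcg
RPS28: tccccgaagcacgtgactcctctccgccag
RPL37A: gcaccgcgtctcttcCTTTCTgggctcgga
RPL22L1: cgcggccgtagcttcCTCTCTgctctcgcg
RPS27: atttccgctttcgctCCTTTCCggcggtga
RPS27L: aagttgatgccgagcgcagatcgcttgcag

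A run of this kind stood at the annotated start of 32 of the 47 matched members (68.1%), against 3.93% of the 27258 promoters of other genes. The search read only the gene's own strand at 1 annotated start per gene. A run that begins at the next base, as in RPS28, was not counted. Among members that were higher in treated RT112 cells under every scaling described below, 6 of 8 matched genes had the run (75%). Among members that were lower under every scaling, 6 of 10 had it (60%), and among the rest 20 of 29 had it (69.0%). These shares rest on few genes, and the difference between them was not tested. Of the 5 matched paralogs only RPL22L1 had it.

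Values are the deposited log2 values. The median over all features of an array lay between 4.37 and 4.40 in 5637 CM272, between 4.40 and 4.44 in RT112 CM272 and between 5.05 and 5.10 in RT112 control arrays. The median gene accordingly differed by -0.57 (log2) between treated and untreated RT112 cells on the deposited values. It differed by 0.08 after each array was centred on the median of its 67528 transcript cluster features, and by -0.02 after quantile normalization. A shift of the whole transcriptome and a difference in array scale cannot be told apart in these values. Each comparison was therefore made on all 3 scalings with limma across all 22465 genes, and a member is called higher or lower only at a Benjamini-Hochberg adjusted p under 0.05. Differences on the deposited scale are read against -0.57. In bulk RNA of this kind, fewer cells and less RNA per cell cannot be told apart.

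The identity of the lines was checked against marker genes. Epithelial and urothelial markers had a median of 7.51 in 5637 CM272, 9.47 in RT112 CM272 and 9.46 in RT112 control cells (16 of 17 measured). Leukocyte markers had a median of 3.65 in 5637 CM272, 3.67 in RT112 CM272 and 4.46 in RT112 control cells (8 of 9 measured). Stromal and endothelial markers had 4.37 in 5637 CM272, 4.66 in RT112 CM272 and 4.91 in RT112 control cells (8 of 9 measured). Both lists lay below the median of all genes in each group.

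Ribosomal protein genes gave bright signals on these arrays. Their median signal over the 9 arrays was 9.26, against 5.20 for all genes, and 30 of the 54 lay in the brightest 10% of genes. The signals ran from 2.88 for RPL10L, a copy of RPL10 used mainly in testis, to 15.93 for RPS21. Signal also depends on the probes of each feature, so these values place features on the array and do not order the mRNAs by abundance. The 3 members below the median gene were RPL10L, RPL39L and RPL22L1, all paralogs of a main ribosomal protein.

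**Figure D1:**
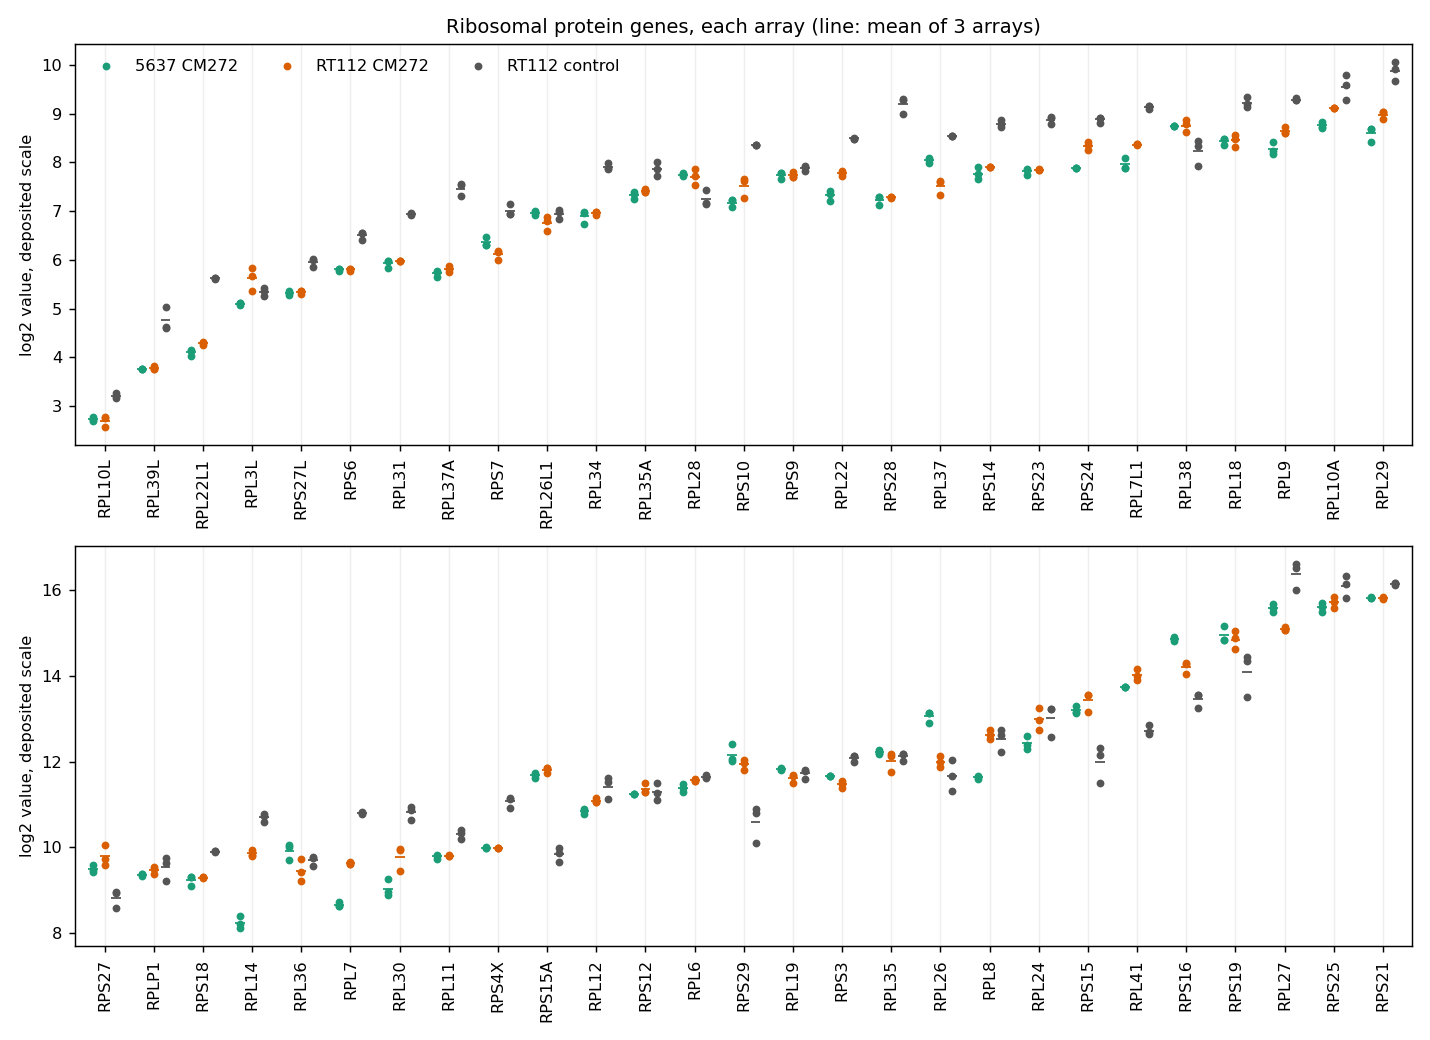
Deposited log2 value (vertical axis) of the 54 ribosomal protein genes on each of 9 arrays, ordered along the horizontal axis by mean signal and split over 2 panels; dots are arrays and short lines the mean of 3 arrays in 5637 CM272, RT112 CM272 and RT112 control cells. In most members the 2 treated groups lie close together and below RT112 control, while RPS15A, RPS15, RPS29 and RPL41 lie above it in both.

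In RT112 cells the ribosomal protein genes did not move as 1 block. On the deposited values 10 members were higher and 35 lower with CM272 than without, and 9 passed in neither direction. That is 18.5% of members higher and 64.8% lower, against 10.8% and 74.2% of all genes, but the members are brighter than most genes, and of the 500 brightest other genes 39.6% were called higher and 41.0% lower. At a signal of 7 to 10, 3 of 25 members were called higher and 20 lower, against 1061 and 2576 of 4511 genes. From 10 to 13, 3 of 13 members were higher and 3 lower, against 317 and 415 of 905 genes. Under 7, 1 of 10 was higher and 9 lower, against 989 and 13611 of 16887 genes, and at 13 or above 3 of 6 were higher and 3 lower, against 66 and 58 of 162 genes. The median difference of the members was -0.51, beside -0.57 for all genes and -0.05 for the 500 brightest other genes. With arrays centred the members split into 24 higher and 13 lower with a median of 0.14 (all genes: 40% higher, 27.8% lower). With quantile normalization they split into 12 higher and 28 lower with a median of -0.22 (all genes: 32.6% higher, 35.5% lower). Relative to the members' own median in each array, 13 were higher and 21 lower (all genes: 16.9% higher, 39.4% lower).

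Calls that held on all 3 scalings numbered 10 higher (18.5% of members, against 10.8% of all genes and 39.6% of the 500 brightest others) and 13 lower (24.1% of members, against 27.8% of all genes and 17.2% of the 500 brightest others). The share of lower members was therefore near that of all genes. The 10 higher members are exactly those called higher on the deposited values. The 13 lower ones are exactly those called lower with arrays centred. The same holds over all genes (2433 higher, 6235 lower). Asking for all 3 scalings thus removed no call beyond those that the strictest scaling in each direction had removed. The differences held in both directions within each subunit: 4 of 33 60S genes were higher and 8 lower, and 6 of 21 40S genes were higher and 5 lower. The median difference on the deposited values was -0.51 for 60S and -0.54 for 40S genes. Neither list was tested as a set.

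**Figure D2:**
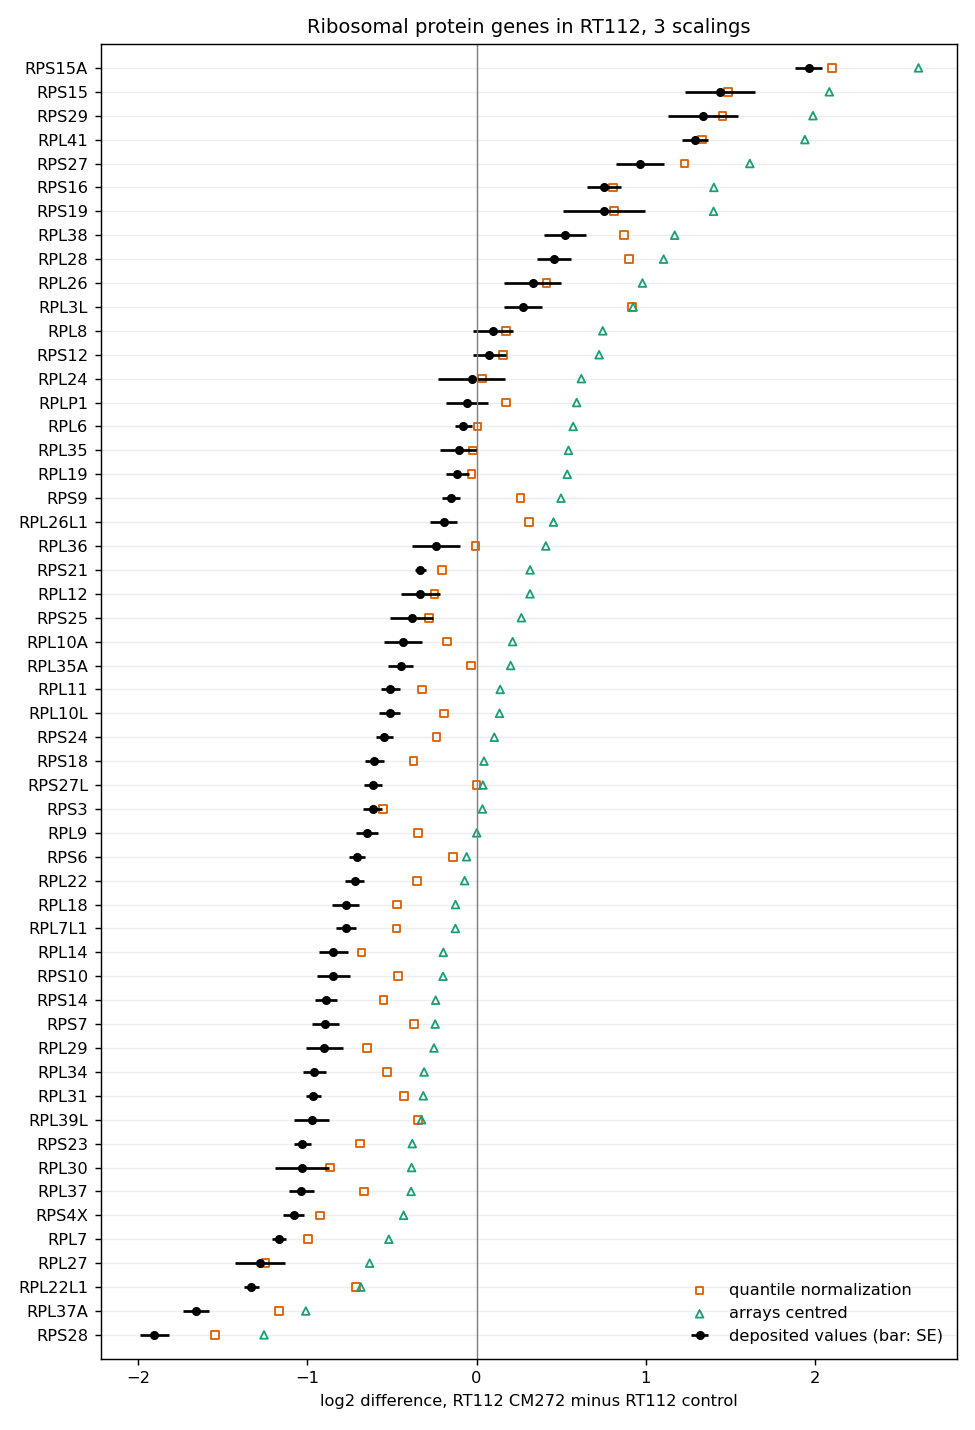
Log2 difference, RT112 CM272 minus RT112 control (horizontal axis), of each of the 54 ribosomal protein genes, ordered from highest to lowest on the deposited values; filled dots with bars are deposited values with the standard error, open squares quantile-normalized values and open triangles values from centred arrays. Centring moves every gene to the right, and RPS15A, RPS15, RPS29 and RPL41 stay above 1 and RPS28 and RPL37A below -1 on all 3 scalings.

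The 40S genes held the largest increases. RPS15A, a protein of the body of the small subunit, had values of 11.85, 11.74 and 11.85 in RT112 CM272 cells, against 9.99, 9.88 and 9.67 in RT112 control cells. Every treated array lay above every untreated one by more than the range within either group, and the difference was 1.96 ± 0.08 (log2, SE; adjusted p = 1.37e-07, limma). Quantile normalization gave 2.10.

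RPS15, a protein of the 40S head needed for export of the maturing subunit from the nucleus, had 13.56, 13.17 and 13.56 in RT112 CM272 cells and 12.33, 12.15 and 11.49 in RT112 control cells. The groups did not overlap, and the difference was 1.44 ± 0.21 (adjusted p = 0.000202). RPS29, a small zinc-binding protein of the 40S head mutated in some families with Diamond-Blackfan anaemia, had 12.04, 11.80 and 11.97 in RT112 CM272 cells, against 10.79, 10.90 and 10.10 in RT112 control cells. It was also higher without overlap, by 1.34 ± 0.21 (adjusted p = 0.000302).

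In both genes the third untreated array was the lowest. It was also the lowest in RPS15A, and in RPS27, RPS16, RPL38 and RPL28, described below. In RPL41 and RPL3L it was not. Without that array the differences were 1.19 for RPS15 and 1.09 for RPS29. RPS19, the 40S protein most often mutated in Diamond-Blackfan anaemia, had the same low array: 14.89, 14.62 and 15.04 in RT112 CM272 cells, against 14.45, 14.34 and 13.50 in RT112 control cells. It was higher by 0.75 ± 0.24 (adjusted p = 0.0181), a difference that was 0.45 without the third untreated array, and its adjusted p was 0.0592 without the third treated array.

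RPS27, a zinc-finger 40S protein, had 9.74, 9.58 and 10.06 in RT112 CM272 cells, against 8.93, 8.97 and 8.58 in RT112 control cells, a difference of 0.97 ± 0.14 (adjusted p = 0.000212). RPS16, whose tail reaches toward the tRNA in the decoding region, had 14.29, 14.05 and 14.31 in RT112 CM272 cells and 13.57, 13.56 and 13.26 in RT112 control cells, a difference of 0.75 ± 0.10 (adjusted p = 0.000117). Neither gene's groups overlapped.

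Among 60S genes the largest increase was that of RPL41, one of the shortest proteins of the ribosome. It had 14.00, 13.90 and 14.15 in RT112 CM272 cells, against 12.64, 12.85 and 12.69 in RT112 control cells, a difference of 1.29 ± 0.08 (adjusted p = 7.85e-07). RPL38, known in mouse for its part in translating Hox mRNAs, was higher by 0.52 ± 0.12, and RPL28, a 60S protein, by 0.46 ± 0.10. The groups did not overlap in any of these 3 genes.

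RPL3L, a paralog of RPL3 used in striated muscle, passed on all 3 scalings but with overlapping groups. It had 5.35, 5.67 and 5.84 in RT112 CM272 cells, against 5.42, 5.25 and 5.36 in RT112 control cells, a difference of 0.28 ± 0.11 (adjusted p = 0.0464). Its call was lost in 8 of the 9 fits that left out 1 array, with differences between 0.17 and 0.41.

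The largest fall was that of RPS28. Beside the largest rise, RPS15A, it was -1.90 against 1.96 on the deposited values, -1.55 against 2.10 with quantile normalization and -1.26 against 2.61 with arrays centred. RPS28, a small 40S protein near the path of the mRNA, had 7.26, 7.30 and 7.30 in RT112 CM272 cells, against 9.30, 9.28 and 8.998 in RT112 control cells. The difference was -1.90 ± 0.09 (adjusted p = 1.99e-07). RPL37A, a zinc-finger 60S protein, had 5.81, 5.87 and 5.74 in RT112 CM272 cells and 7.54, 7.55 and 7.31 in RT112 control cells, a difference of -1.66 ± 0.07 (adjusted p = 1.97e-07). The groups lay far apart in both genes. In RPS28 the value 7.2998 stood on RT112 CM272 arrays 2 and 3 and again on 5637 CM272 array 2. The tightness of its treated group thus rests in part on repeated identical values.

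RPL27, a 60S protein and among the brightest members, had 15.06, 15.08 and 15.15 in RT112 CM272 cells, against 16.62, 16.52 and 16.00 in RT112 control cells, a difference of -1.28 ± 0.15. RPL7, also of the 60S subunit, had 9.62, 9.62 and 9.65 in RT112 CM272 cells, against 10.82, 10.78 and 10.80 in RT112 control cells, a difference of -1.17 ± 0.04. RPS4X, an X-linked 40S protein, had exactly 9.994 on each of the RT112 CM272 arrays, against 11.16, 10.92 and 11.14 in RT112 control cells. Its difference was -1.08 ± 0.06. The adjusted p was 4.56e-05 for RPL27, 7.41e-08 for RPL7 and 6.29e-07 for RPS4X (limma), and no groups overlapped.

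The remaining main ribosomal proteins that were lower on all 3 scalings fell by amounts close to each other. RPL37 (-1.04), RPS23 (-1.03), RPL31 (-0.96), RPL34 (-0.96), RPS7 (-0.89) and RPS14 (-0.89) are differences on the deposited values. RPS23 is the protein of the decoding centre that guards accuracy, RPL31 sits at the mouth of the exit tunnel, and RPS14 is the gene whose single-copy loss underlies the anaemia of the 5q- syndrome. With quantile normalization RPL37 differed by -0.66, RPS23 by -0.69, RPL31 by -0.43, RPL34 by -0.53, RPS7 by -0.37 and RPS14 by -0.55. RPL31 (5.9731) and RPS14 (7.9027) each had the same value on all 3 RT112 CM272 arrays.

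Of the 7 paralogs, 1 was higher and 2 were lower on all 3 scalings, and 4 were not called alike on all 3. RPL22L1, which can take the place of RPL22, had 4.32, 4.26 and 4.30 in RT112 CM272 cells, against 5.61, 5.64 and 5.63 in RT112 control cells, and differed by -1.33 ± 0.04 (adjusted p = 6.61e-08). Its main form RPL22 differed by -0.72 on the deposited values and by -0.07 with arrays centred. RPL39L, a testis-enriched form of RPL39, differed by -0.97 ± 0.10 and was near the low end of signals in all 3 groups. The identical value 3.7672 stood on RT112 CM272 arrays 2 and 3 and on all 3 of the 5637 CM272 arrays.

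RPS27L, a p53-responsive form of RPS27, differed by -0.61 on the deposited values and by -0.00 with quantile normalization, whereas RPS27 itself was 0.97 higher. RPL26L1 differed by -0.19 on the deposited values but by 0.31 with quantile normalization and 0.45 with arrays centred, so its direction turned with the scaling; its main form RPL26 differed by 0.33 and did not pass on the deposited values (adjusted p = 0.0953). RPL7L1 differed by -0.77 and RPL10L by -0.51 on the deposited values, and RPL10L by 0.14 with arrays centred. The difference between a paralog and its main form was not tested.

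The other 27 main ribosomal proteins were not called in the same direction on all 3 scalings. On the deposited values 9 of them passed in neither direction: RPL6, RPL8, RPL19, RPL24, RPL26, RPL35, RPL36, the stalk protein RPLP1 and RPS12, with differences between -0.24 for RPL36 and 0.33 for RPL26. The 18 others were called lower on the deposited values. They were RPL9, RPL10A, RPL11, RPL12, RPL14, RPL18, RPL22, RPL29, RPL30, RPL35A, RPS3, RPS6, RPS9, RPS10, RPS18, RPS21, RPS24 and RPS25, from -1.03 for RPL30 to -0.15 for RPS9. With arrays centred these 18 ran from -0.38 for RPL30 to 0.50 for RPS9. The direction of several thus turned with the scaling, RPS21 (0.32) and RPS25 (0.26) among them. RPL14, RPL18, RPL22, RPL29, RPL30, RPS6 and RPS10 stayed negative on all 3 scalings but did not pass with arrays centred. RPL8, RPL26 and RPS12 stayed positive on all 3 but passed only with arrays centred. RPL11, which binds MDM2 together with RPL5 when ribosome assembly fails, had means of 9.81 ± 0.01 in RT112 CM272 and 10.32 ± 0.11 in RT112 control cells (SD, n = 3). RPS6, the substrate of S6 kinase, had means of 5.80 ± 0.03 in RT112 CM272 and 6.51 ± 0.08 in RT112 control cells.

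Of the 54 members, 9 had all RT112 CM272 arrays above all RT112 control arrays and 33 had all of them below. Over all genes these shares were 11.1% and 74.3%. Most features of RPS18 gave the same values as its brightest one, and all 7 lay lower in treated cells, by -1.57 to -0.13. The 2 features of RPL30 differed by -1.03 and -0.12.

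On the deposited values the differences went with signal strength, among the members as among all genes. The 10 members under a signal of 7 had a median difference of -0.80 (all genes at that signal: -0.61, n = 16887) and the 25 between 7 and 10 had -0.72 (all genes: -0.34, n = 4511). The 13 members between 10 and 13 had -0.03 (all genes: -0.15, n = 905) and the 6 at 13 or above had 0.21 (all genes: 0.00, n = 162). Members between 7 and 10 thus lay lower than the median gene of like signal, and those from 10 upward lay higher. With quantile normalization the medians of all genes in these ranges lay between -0.045 and 0.052, while the members had -0.27 under 7, -0.37 between 7 and 10, 0.03 between 10 and 13 and 0.30 at 13 or above. Across the 54 members Pearson's r of the difference with mean signal was 0.42 (Spearman's rho 0.45), a description across genes that share the same arrays. The median signal was 11.34 for the members higher on all 3 scalings and 7.91 for those lower on all 3. The signal is a mean over the same arrays that give the difference, so the 2 are not independent. RPS15A, for example, had a mean of 9.85 in RT112 control and 11.81 in RT112 CM272 cells, and a signal of 11.11. How much of the relation comes from this was not tested.

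**Figure D3:**
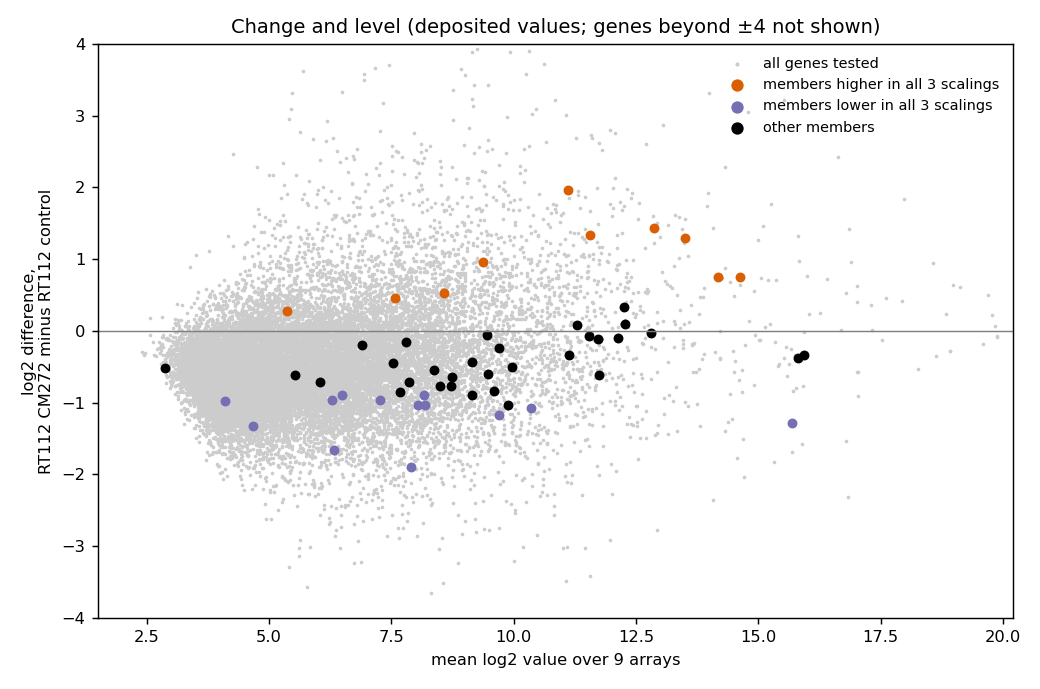
Log2 difference, RT112 CM272 minus RT112 control (vertical axis), against mean log2 signal over 9 arrays (horizontal axis), on the deposited values; grey dots are all genes, and larger dots ribosomal protein genes higher in all 3 scalings, lower in all 3 and neither. Of the 10 higher members 6 lie at a signal of 10 or above, and of the 13 lower members 2 do.

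Single arrays were low for many members at once. In 5637 CM272 cells array 1 was the lowest of 3 in 37 of 54 members, by a median of -0.09, and in RT112 CM272 cells array 2 was the lowest in 33 of 54, by a median of -0.06, while the median over all genes was 0.00 for both. The third untreated RT112 array was the lowest of the 3 untreated arrays in 35 of 54 members, by a median of -0.14 from the mean of the other 2, while the median over all genes was -0.01. Among the 500 brightest other genes 5637 CM272 array 1 was the lowest in 274, with a median gap of -0.07. RT112 CM272 array 2 was the lowest in 177 of them (-0.01) and the third untreated RT112 array in 153 (0.04). The gap of that array was largest in RPS19 (-0.89), RPS15 (-0.75), RPS29 (-0.75), RPL24 (-0.66), RPL27 (-0.57) and RPL26 (-0.55). Across the 54 members Pearson's r of the RT112 difference with this gap was -0.49 (Spearman's rho -0.46). The third untreated array is part of the untreated mean, so the difference and the gap are not independent. Without that array 9 members were higher and 36 lower on the deposited values. The median replicate SD of the members was 0.07 in 5637 CM272, 0.08 in RT112 CM272 and 0.11 in RT112 control cells. Exactly equal values on 1 or more arrays of both treated lines occurred in 14 of 54 members (25.9%, against 37.7% of all genes) and between treated and untreated RT112 arrays in 0 of 54. The median RT112 difference was -0.74 in the members with such a value and -0.41 in those without. The part of these equal values in the differences was not tested.

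Genes around the ribosome were read from lists of known function. FAU, which encodes the 40S protein RPS30 fused to a ubiquitin-like protein and lies outside the naming rule, was 9.03 ± 0.06 in RT112 CM272 and 6.84 ± 0.15 in RT112 control cells (SD, n = 3). That difference, 2.19 ± 0.10 (adjusted p = 1.77e-07), was larger than that of any member. RPL36AL, also outside the rule, differed by -0.30 and did not pass (adjusted p = 0.0534).

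Ribosome assembly factors were lower on all 3 scalings in 18 of 32 measured (56.2%, against 27.8% of all genes) and higher in 1 (3.12%, against 10.8%). Their median difference was -1.06 on the deposited values (all genes: -0.57) and -0.65 with quantile normalization (all genes: -0.02). The lowest were RRS1 (-1.88), the RNA polymerase I cofactor TCOF1 (-1.76), the box C/D core protein NOP58 (-1.74) and the 18S rRNA endonuclease NOB1 (-1.70), and RRP12 was higher by 0.31. Whether the assembly factors differed from the ribosomal proteins was not tested.

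Translation factors encoded by TOP mRNAs had 1 gene higher (7.69%) and 4 lower (30.8%) of 13 measured, with a median of -0.58. These shares, on all 3 scalings, and this median, on the deposited values, were near those of all genes (10.8% higher, 27.8% lower, median -0.57). With quantile normalization alone 1 was higher and 10 were lower (76.9%, against 35.5% of all genes). The median was then -0.37 (all genes: -0.02). For the 500 brightest other genes the deposited median was -0.05, and 37.6% were lower with quantile normalization. EIF3E (-1.96), NAP1L1 (-1.18), EIF4B (-1.08) and NPM1 (-0.88) were lower and EIF3K was higher by 0.70. Proteins of the mitochondrial ribosome had 7 higher (9.46%) and 14 lower (18.9%) of 74, with a median of -0.59. On all 3 scalings the share of higher genes was near that of all genes and the share of lower genes below it. With quantile normalization alone 28.4% were higher and 41.9% lower (all genes: 32.6% and 35.5%). MRPL3 (-3.02) and MRPL15 (-2.03) were lower, and MRPL53 (0.91) and MRPL18 (0.88) higher. Of 13 genes of mTOR control of TOP mRNAs, 3 were higher (23.1%) and 4 lower (30.8%), beside the same 10.8% and 27.8% of all genes. TSC1 (1.19), MTOR (0.81) and EIF4EBP2 (0.55) were higher. LARP1 (-1.22), EIF4E (-0.98), RPTOR (-0.93) and TSC2 (-0.80) were lower on all 3 scalings. Small nucleolar RNA host genes had 2 measured, of which neither passed on all 3 scalings. Common reference genes had 3 higher (25%) and 2 lower (16.7%) of 12, beside 10.8% and 27.8% of all genes, and the 500 brightest other genes had 198 higher and 86 lower.

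The treated lines were then compared with each other, 5637 CM272 with RT112 CM272. This comparison uses the same RT112 CM272 arrays as the one above, and it shows differences between lines under treatment, not effects of the compound. The SD of the 54 differences was 0.41 between the treated lines, against 0.79 between treated and untreated RT112 cells, and for all genes these were 0.62 and 0.72. For the 500 brightest other genes they were 1.24 between the treated lines and 1.21 between treated and untreated RT112 cells. The exact values that the treated lines share, in 25.9% of members and 37.7% of all genes, enter the first of these SDs in each case, and their part in it was not tested. On the deposited values 8 members were higher and 15 lower in 5637 CM272 cells, with a median difference of -0.06 (all genes: 17.1% higher, 15.8% lower, median -0.01). The higher count was smaller in every fit that left out 1 array, at 3 to 7. It was 3 without RT112 CM272 array 1 or 2 or 5637 CM272 array 2 or 3. It was 4 without 5637 CM272 array 1 and 5 without RT112 control array 2. RT112 control arrays enter this comparison only through the estimate of spread. Why the count fell was not tested. With a replicate block the higher count was 4. On all 3 scalings 7 were higher (13%, against 16.4% of all genes) and 12 lower (22.2%, against 13.4%). Of the 500 brightest other genes 27.8% were higher and 35.4% lower on all 3 scalings, both above the shares of the members. Relative to the members' own median in each array, 35 were higher and 3 lower (all genes: 76.8% higher, 4.28% lower). That scaling subtracts member medians of 8.71 in 5637 CM272 and 9.20 in RT112 CM272 arrays. These lie further apart than the median member difference of -0.06, so the calls of members and of all genes turned with it. All arrays of 5637 CM272 lay above those of RT112 CM272 in 9 members and below them in 20, against 21.3% and 21.6% of all genes.

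RPL14, a 60S protein, showed the largest difference. It had 8.12, 8.22 and 8.41 in 5637 CM272 cells, against 9.83, 9.94 and 9.81 in RT112 CM272 cells, a difference of -1.61 ± 0.08 (adjusted p = 2.13e-06, limma). No array of one line came within a log2 unit of the other line.

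The 3 members on chromosome 8 were all lower in 5637 CM272 cells. RPL8, a protein of the peptidyl transferase centre, had 11.65, 11.67 and 11.59 in 5637 CM272 cells, against 12.73, 12.53 and 12.61 in RT112 CM272 cells, a difference of -0.99 ± 0.12. RPL7 had 8.64, 8.63 and 8.73 in 5637 CM272 cells, against 9.62, 9.62 and 9.65 in RT112 CM272 cells, a difference of -0.97 ± 0.04. RPL30 had 8.89, 8.97 and 9.26 in 5637 CM272 cells, against 9.98, 9.94 and 9.44 in RT112 CM272 cells, a difference of -0.74 ± 0.16. The groups overlapped in none of them, and the 181 genes of the chromosome at a signal of 7 or above had a median of -0.27.

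RPL26, a 60S protein at the tunnel exit, was the most increased. It had 12.91, 13.14 and 13.13 in 5637 CM272 cells, against 11.99, 11.89 and 12.13 in RT112 CM272 cells, a difference of 1.06 ± 0.17 (adjusted p = 0.00132). RPL26, RPL27 (0.49) and RPL19 (0.21) lie on chromosome 17, where the 384 genes at a signal of 7 or above had a median of 0.31, while RPL38 on the same chromosome differed by -0.00. On chromosome 3, with a median of -0.38 over 320 such genes, RPL14 and RPL29 (-0.38) lie beside RPL24 (-0.55), RPL22L1 (-0.19), RPL35A (-0.08) and RPL39L (-0.02). On chromosome 16, with a median of -0.56 over 228 such genes, RPL3L differed by -0.52 and RPS15A by -0.13.

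RPS16 had 14.82, 14.91 and 14.87 in 5637 CM272 cells and 14.29, 14.05 and 14.31 in RT112 CM272 cells, a difference of 0.65 ± 0.10. RPL37 (0.53), RPL36 (0.46) and RPS3 (0.19) were also higher on all 3 scalings. The others that were lower were RPL3L (-0.52), RPL22 (-0.45), RPS24 (-0.45), RPL7L1 (-0.41), RPL9 (-0.37), RPS10 (-0.34) and RPL22L1 (-0.19). Calls for RPL19, RPL27 and RPL36 were lost in 7, 6 and 7 of the 9 fits that left out 1 array.

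**Figure D4:**
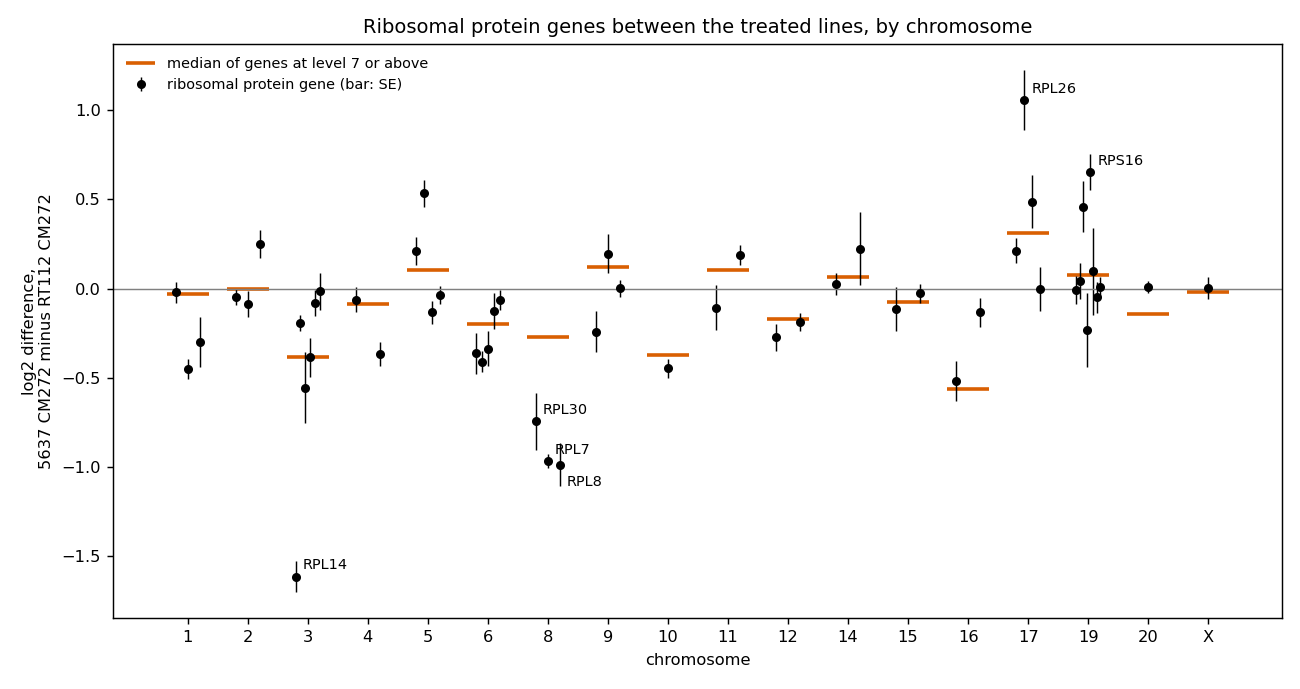
Log2 difference, 5637 CM272 minus RT112 CM272 (vertical axis, deposited values), of the ribosomal protein genes by chromosome (horizontal axis); dots with bars are genes with the standard error, and horizontal bars the median of all genes of that chromosome at a mean log2 signal of 7 or above. RPL14 on chromosome 3 and the 3 members on chromosome 8 lie lowest, and RPL26 on chromosome 17 highest.

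For the members with the largest differences in RT112 cells, the 5637 CM272 values were as follows. RPS15A had 11.61, 11.70 and 11.73 in 5637 CM272 cells, RPL41 13.74, 13.75 and 13.74, and RPS28 7.12, 7.30 and 7.29. These values sit close to those of RT112 CM272 cells given above. In RPS28 the value of 5637 CM272 array 2 (7.2998) is exactly equal to a value in RT112 CM272 cells. Without usable untreated 5637 values these numbers do not show what CM272 did in 5637 cells.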

How the data were processed

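The authors deposited 1 table of log2 values per array, which the submitters' processing notes credit to RMA, run with Affymetrix Expression Console. Versions, annotation and build are not given in the sources used here, and array maxima up to 19.9 leave it unknown whether a step beyond RMA set the scale. The 3 untreated 5637 arrays were left out because their mean correlated with that of treated 5637 arrays at 0.0274 over 67528 transcript clusters and 0.967 over 2995 other features.

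Features with 1 gene symbol were kept, the brightest per gene over 9 arrays. Differences were fitted with limma 3.58.1 in R 4.3.3 (1 mean per group over 9 arrays, 6 residual degrees of freedom, constant variance prior, Benjamini-Hochberg over 22465 genes, threshold 0.05), tested on simulated data. The number of arrays limits the precision. Alternatives were array centring on the transcript clusters or on the members, quantile normalization, mean of features per gene and filters on dim and tied genes. Others were a trended prior, 2 groups only, a replicate block and leaving out each array.

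Arrays sharing a replicate number did not deviate together (correlations -0.089 to 0.039), so they were not treated as paired. Named genes were the largest differences in each direction, members called alike on all 3 scalings, paralogs, brightest and dimmest members, and up to 4 called genes per other list. The members and lists were chosen with earlier results of these data known.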

Additional observations from a re-analysis of the deposited data

How the results depend on the processing

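In RT112 CM272 against RT112 control, centring arrays gave 24 higher and 13 lower members with a median of 0.138, quantile normalization a median of -0.22 (RT112 arrays alone, chosen after seeing the data: -0.215), and centring on the members 21 lower and a median of -0.157. RPL10L (0.136), RPL26L1 (0.455), RPS21 (0.317), RPS25 (0.265) and RPS27L (0.038) turned positive with centring, RPL26L1 (0.309, RT112 arrays alone 0.305) with quantile normalization, and RPL26L1 (0.16) and RPS21 (0.022) with centring on the members. In 5637 CM272 against RT112 CM272, centring gave a median of -0.018, with RPL39L at 0.029 and RPS27L at 0.018; quantile normalization put RPL39L at 0.035 and RPS21 at -0.023. Centring on the members subtracts member medians of 8.71 in 5637 CM272 and 9.20 in RT112 CM272 arrays, which gave 35 higher and 3 lower, a median of 0.428, and RPL22 at 0.042, RPL22L1 at 0.297, RPL39L at 0.476, RPL7L1 at 0.082, RPS25 at 0.385 and RPS27L at 0.464. In RT112 these member medians were 9.20 in RT112 CM272 and 9.55 in RT112 control arrays. Centring, on the arrays or on the members, subtracts 1 value per array, so it moves every gene of a comparison by the same amount. The cause of the remaining shifts was not tested. With a replicate block 4 members were higher in 5637 CM272 and 12 lower, and in RT112 9 were higher and 33 lower. Leaving out 1 array gave 8 to 10 higher, 31 to 36 lower and medians of -0.557 to -0.472 in RT112, and 3 to 7 higher, 10 to 16 lower and medians of -0.097 to -0.01 between the lines. The 3 to 5 higher members followed from leaving out RT112 CM272 array 1 or 2, RT112 control array 2 or any 5637 CM272 array. Between the lines RPL10L ranged from -0.035 to 0.062, RPL39L from -0.023 to 0.0, RPS19 from -0.017 to 0.192 and RPS21 from -0.002 to 0.022. With 3 arrays per group, small differences between the lines rest on few arrays.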
